A study of Mus musculus with 9 samples.

Results

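The interleukin 1 and tumour necrosis factor (TNF) axis was followed through 10 genes of the 20778 gene symbols in the deposited table, taken by symbol: Il1a, Il1b, Il1rn, Il1r1, Il1rl1, Il33, Tnf, Tnfrsf1a, Tnfrsf1b and Tnfsf9. All 10 passed the filter on low values (at least 10 on average across the libraries), as did 13773 symbols in total. RNA of whole cell mixtures was sequenced in 9 libraries, 3 from each of 3 groups, all built on GL261, a mouse glioblastoma line labelled with mCherry. The tumour group came from the brains of 7-week-old male C57BL/6 mice with an intact immune system, in which 50000 GL261 cells had been placed in the striatum, and tissue was taken on day 14. The labels' protocols give 5 mice, under ketamine and xylazine anaesthesia for the implantation. Both culture groups held GL261, seeded at 1000000 cells per ml, with primary astrocytes, microglia, pericytes and endothelial cells from brains of male C57BL/6 mice aged 6 to 10 weeks. The cells grew either on a dish (2D culture) or inside a fibrin gel (3D bioink). Only the bioink is recorded as digested before RNA extraction, with 600 U per ml of collagenase II for 3 h, and passed through a 70 µm mesh, so gel and digestion cannot be told apart. The microglia were those held by CD11b beads, and the cells left after bead sorting served as astrocytes. The labels do not say whether libraries of a group came from separate mice or cultures, so the p-values reflect library-to-library spread that could be technical.

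Interleukin 1 alpha and beta are inflammatory cytokines that act through the receptor Il1r1 with its partner Il1rap, and Il1rn encodes a secreted antagonist that occupies the same receptor. Interleukin 33 is a nuclear cytokine released from damaged cells, sensed by the receptor Il1rl1 (ST2). TNF binds the widely expressed Tnfrsf1a and the more restricted Tnfrsf1b, and both cytokine systems converge on the transcription factor NF-kappa-B. In brain tumours, microglia and infiltrating macrophages are a known source of interleukin 1 beta and TNF, while interleukin 33 is known from glia and stromal cells.

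The proximal promoters of Il1b, Tnf and Il1rn, which were high in tumours, and of Il33, which was higher in the cultures, are shown for reference. Each is the 250 bases before the annotated start, from RefSeq on GRCm38.p6 (the assembly also called mm10), written 5′ to 3′ on the strand of the gene. Capitals mark matches to the motifs named below. The windows are chr2:129371140-129371389 (minus strand) for Il1b, chr17:35202008-35202257 (minus strand) for Tnf, chr2:24336610-24336859 (plus strand) for Il1rn and chr19:29924863-29925112 (plus strand) for Il33.
Il1b: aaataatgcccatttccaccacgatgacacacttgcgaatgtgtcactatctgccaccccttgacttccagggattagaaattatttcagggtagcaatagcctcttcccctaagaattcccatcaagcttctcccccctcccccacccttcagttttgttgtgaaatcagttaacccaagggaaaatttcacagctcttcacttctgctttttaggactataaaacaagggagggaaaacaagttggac
Tnf: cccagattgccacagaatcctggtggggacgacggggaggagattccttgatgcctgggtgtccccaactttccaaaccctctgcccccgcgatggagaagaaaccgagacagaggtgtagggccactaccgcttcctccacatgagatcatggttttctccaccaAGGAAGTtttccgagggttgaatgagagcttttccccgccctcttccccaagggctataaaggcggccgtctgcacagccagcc
Il1rn: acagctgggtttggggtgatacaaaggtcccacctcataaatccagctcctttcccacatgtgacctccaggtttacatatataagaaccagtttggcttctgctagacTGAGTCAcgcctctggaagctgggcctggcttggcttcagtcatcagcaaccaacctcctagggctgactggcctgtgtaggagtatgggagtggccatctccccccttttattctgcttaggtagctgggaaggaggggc
Il33: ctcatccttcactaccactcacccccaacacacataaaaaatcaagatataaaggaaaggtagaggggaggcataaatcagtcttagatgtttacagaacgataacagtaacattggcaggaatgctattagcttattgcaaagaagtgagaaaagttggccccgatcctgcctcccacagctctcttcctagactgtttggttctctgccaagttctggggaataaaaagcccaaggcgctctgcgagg

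Promoter windows were found for 9 of the 10 genes, 14 windows in all. They were searched on both strands for AP-1 (TGANTCA), the cyclic AMP response element (TGACGTCA), C/EBP (TTNNGCAAT), an ETS and PU.1 motif (AGGAAGT) and the kappa-B consensus. A match to one of these could not also be a match to another at the same place, except by partial overlap, which did not occur in the 4 windows shown. The Tnf window held the ETS and PU.1 letters from 84 to 78 bases before the start, and the Il1rn window an AP-1 match from 141 to 135 bases before it. Neither the Il1b nor the Il33 window shown held any of the letters searched. Elsewhere, Il1a held an AP-1 match from 12 to 6 bases before its start, and 1 of the Il1r1 windows a kappa-B match from 232 to 223 bases before its start. Among 32841 promoter windows of the same length, 7.69% held the ETS and PU.1 letters, 6.75% AP-1, 7.25% kappa-B, 1.93% C/EBP and 1.55% the cyclic AMP element. These matches describe letters only and were not compared with the expression values.

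All values are the authors' normalized counts, rounded to whole numbers, with no depth known. Their sums lay between 13548461 and 16388074 and follow the normalization, so no counting interval is given. The 3D library of replicate 1 stood apart, with an array weight in limma of 0.236 against 0.688 to 4.96 for the others. Across genes, log2 values of 2 libraries of a group correlated at 0.927 to 0.97, and those of different groups at 0.744 to 0.903. A library is a mixture, so fewer cells of a type and less RNA per cell cannot be told apart.

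The cell type markers of the mixtures differed between the groups. The summed value of 11 macrophage and monocyte genes ran from 38183 to 40213 in tumours, from 209 to 255 in 2D culture and from 763 to 911 in 3D bioink. Of these, Tyrobp, an adaptor of myeloid receptors, was listed at 0 in every culture library, and Adgre1 (F4/80) in every 2D library. Others were not near 0 in bioink, such as Cd14 at 362, 246 and 268. Of the 11, 11 were lower in 2D culture and 10 in bioink than in tumours (27% and 37.3% of all genes). Ccr2 did not pass in bioink, at 111, 31 and 40 against 48, 43 and 51 in tumours. For 10 microglia genes the sums were 12769 to 13483 in tumours, 894 to 1002 in 2D culture and 1502 to 1571 in bioink. Fcrls stood at 0 in every 3D library and P2ry13 in every 2D library, so defining genes of the labelled microglia were at or near 0 in the cultures. Astrocyte sums differed less, at 3535 to 3807, 3641 to 3756 and 4081 to 4401. Of 6 tested astrocyte genes, 2 were higher (Aldoc, S100b) and 2 lower (Gfap, Slc1a3) in each culture than in tumours. These shares, 33.3% each, lay near those of all genes: 27.1% higher and 37.3% lower in bioink, and 27.3% and 27% in 2D culture. Slc1a3 was 7.66-fold lower in 2D culture and 2.45-fold lower in bioink, and Gfap 3.57-fold and 1.58-fold lower, while Aqp4, a defining astrocyte channel, reached at most 15 in any library. Endothelial sums were 5352 to 5749, 4761 to 5112 and 5274 to 7661 and were mostly Pecam1. Among endothelial genes, Cdh5 was 3.84-fold higher in 2D culture and 3.92-fold higher in bioink than in tumours. Flt1 was 1.92-fold higher in bioink but 1.29-fold lower in 2D culture. Kdr was 3.16-fold lower in 2D culture and 2.64-fold lower in bioink, and Cldn5 fell to 2 to 20 in the cultures from 93 to 147. Pecam1 and Tek did not pass in either culture against tumours. Pericyte sums were 1492 to 1641, 973 to 1019 and 2511 to 2624, and fibroblast sums 902 to 934, 5709 to 5918 and 8588 to 9305. The pericyte sums were mostly Cspg4, which was lower in 2D culture than in tumours, as were Rgs5 and Des, while Pdgfrb and Notch3 were higher. The fibroblast sums were mostly Col1a1. Dcn read 0 to 4 in 2D culture and 329 to 405 in bioink, and Lum 0 to 3 and 27 to 77.

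The first question was how the axis in each culture differed from that in the tumour. Both interleukin 1 cytokines, their antagonist and TNF were abundant in tumours and close to 0 in the cultures, and Il33 ran the other way. Il1b, interleukin 1 beta, read 8845, 8704 and 8358 in tumours, 1, 0 and 0 in 2D culture, with 8, 3 and 2 in bioink. Every tumour library thus stood far above every culture library. On the log2(value + 1) scale, Il1b differed from tumours by -12.74 in 2D culture (SE 0.46, limma adjusted p = 1.32e-08) and by -10.82 in 3D bioink (SE 0.46, adjusted p = 4.88e-08). With 10 added in place of 1 these differences were -9.71 and -9.26, and with 0.5 added the former was -13.55, so their size depends on the added value.

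Tnf read 2473, 2492 and 2416 in tumours, 1, 0 and 2 in 2D culture, with 9, 3 and 4 in bioink. Its difference from tumours was -10.40 in 2D culture (SE 0.49, limma adjusted p = 7.96e-08) and -8.72 in 3D bioink (SE 0.49, adjusted p = 2.84e-07), or -7.82 and -7.35 with 10 added, and -9.46 for bioink after quantile normalization. Il1a, interleukin 1 alpha, read 1782, 1745 and 1600 in tumours, 2, 4 and 0 in 2D culture, with 0, 1 and 5 in bioink. The tumour libraries again lay far above all others, while the cultures overlapped. The Il1a differences were -9.44 for 2D culture (limma adjusted p = 2.86e-06) and -9.54 for 3D bioink (adjusted p = 2.43e-06), both with SE 0.74. They moved by over 1.5 times with single libraries, to -8.79 without 2D replicate 3, -8.95 without 3D replicate 1 and -10.24 without 3D replicate 3. With 10 added they were -7.17 and -7.18, and with array weights the bioink difference was -8.46.

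Il1rn, the receptor antagonist, read 6543, 7474 and 7291 in tumours, 7, 11 and 13 in 2D culture, with 42, 26 and 45 in bioink. No library of a group overlapped another group, and the order was tumour, bioink, 2D. The difference from tumours was -9.33 on the log2 scale in 2D culture (limma adjusted p = 2.7e-09) and -7.56 in bioink (adjusted p = 1.45e-08), both with SE 0.26. Il1rn differed from tumours by -8.46 in 2D culture with 10 added and by -8.67 after quantile normalization. The part of the macrophage and microglia markers, which were lower in the cultures by the sums given above, in the falls of Il1a, Il1b, Il1rn and Tnf was not tested.

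Tnfsf9, the ligand of the T cell receptor 4-1BB, also stood highest in tumours but remained well above 0 in the cultures. It read 264, 303 and 250 in tumours, 44, 42 and 60 in 2D culture, with 117, 91 and 74 in bioink, with no overlap between groups. It was 5.55-fold lower in 2D culture (log2 -2.47, SE 0.23, limma adjusted p = 1.07e-05) and 2.92-fold lower in bioink (log2 -1.55, adjusted p = 0.00024). Fold changes here and below are on the scale of the value plus 1.

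Il33 was lower in tumours than in either culture. It read 53, 31 and 73 in tumours, 242, 255 and 261 in 2D culture, with 494, 389 and 429 in bioink, and the groups did not overlap. Relative to tumours it was 5.03-fold higher in 2D culture (log2 2.33, SE 0.27, limma adjusted p = 4.64e-05) and 8.66-fold higher in bioink (log2 3.11, adjusted p = 5.18e-06). Fibroblast and pericyte marker sums, mostly Col1a1 and Cspg4 as given above, were highest in bioink as well. In 2D culture, where Il33 was above tumours, the pericyte sums were below them, at 973 to 1019 against 1492 to 1641. The part of either cell type in the level of Il33 was not tested.

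**Figure D1:**
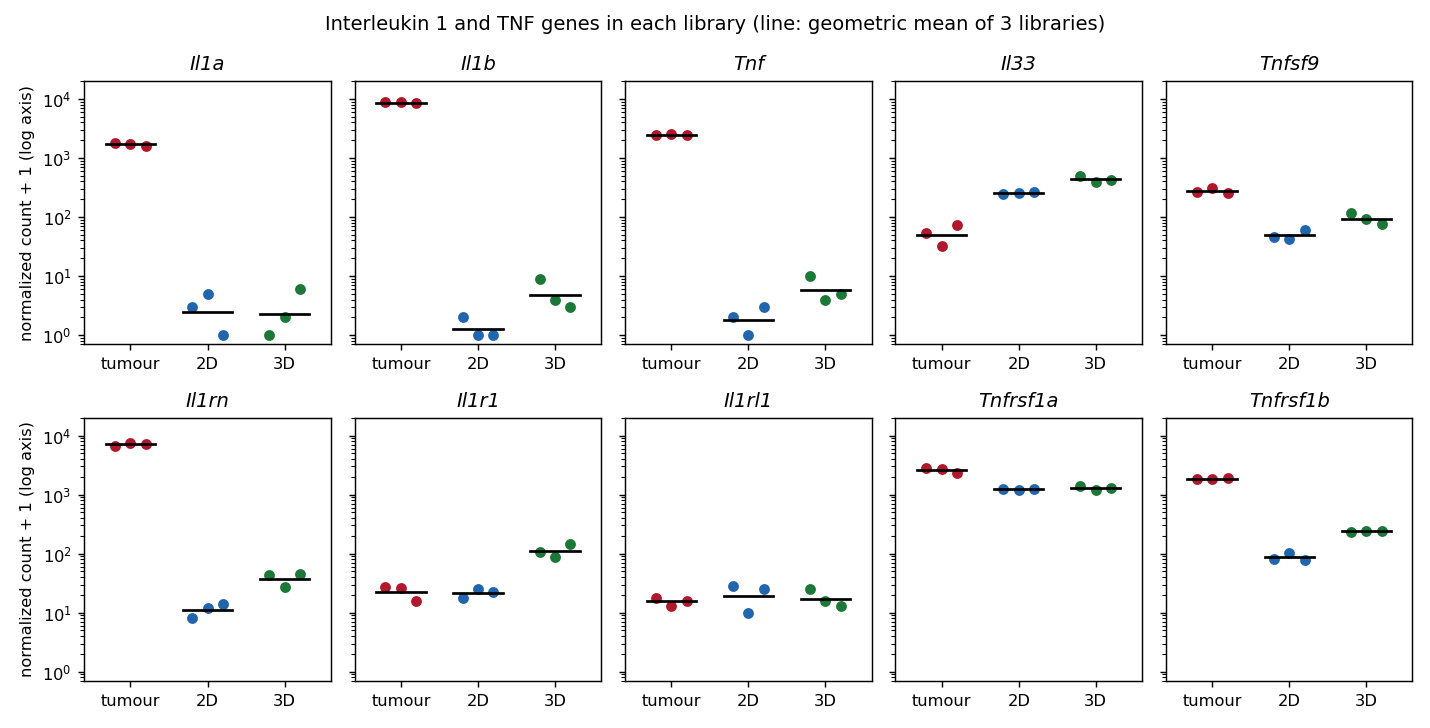
Normalized count plus 1 of each of the 10 genes (log axis) in the 3 tumour, 2D culture and 3D bioink libraries, 1 point per library, with a line at the geometric mean of the 3 libraries. Il1a, Il1b, Il1rn and Tnf sit at 1600 or more in every tumour library and at 45 or less in every culture library, and Il33 sits at 73 or less in tumours and at 242 or more in the cultures.

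The receptors did not move together: against tumours both TNF receptors were lower in the cultures, Il1r1 was higher in bioink, and Il1rl1 did not pass. Tnfrsf1a, the broadly expressed TNF receptor with a death domain, read 2800, 2671 and 2282 in tumours, 1245, 1208 and 1236 in 2D culture, with 1382, 1189 and 1271 in bioink. It was 2.09-fold lower in 2D culture (log2 -1.07, SE 0.09, limma adjusted p = 3.35e-06) and 2.01-fold lower in bioink (log2 -1.01, adjusted p = 4.38e-06), and the cultures overlapped. Tnfrsf1b, the TNF receptor without a death domain that is known from immune and endothelial cells, read 1851, 1852 and 1896 in tumours, 81, 101 and 78 in 2D culture, with 234, 242 and 243 in bioink. Here all groups were separate. Tnfrsf1b was 21.4-fold lower in 2D culture (log2 -4.42, SE 0.12, limma adjusted p = 1.57e-09) and 7.76-fold lower in bioink (log2 -2.96, adjusted p = 3.01e-08).

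Il1r1, the signalling receptor for interleukin 1, read 26, 25 and 15 in tumours, 17, 24 and 21 in 2D culture, with 104, 87 and 145 in bioink. Only the bioink libraries stood apart, all 3 above every other library. Il1r1 was 4.93-fold higher in bioink than in tumours (log2 2.30, SE 0.34, limma adjusted p = 0.000232), whereas 2D culture and tumours overlapped (log2 -0.06, SE 0.34, adjusted p = 0.897). That small difference changed sign under other settings and has no direction. Il1rl1, the receptor for interleukin 33, was low throughout, at 17, 12 and 15 in tumours, 27, 9 and 24 in 2D culture, with 24, 15 and 12 in bioink. Its groups overlapped in every comparison, with differences from tumours of 0.16 in bioink and 0.30 in 2D culture (SE 0.51 for both, limma adjusted p = 0.796 and 0.648).

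In all, 9 of the 10 genes passed an adjusted p of 0.05 between bioink and tumours, 2 higher (Il33, Il1r1) and 7 lower. Of all genes tested, 64.4% passed in that comparison, 27.1% higher and 37.3% lower (3737 and 5132 genes, or 4886 and 3825 with equal library sums). The same 9 genes had groups that did not overlap, as did 67.6% of all genes. Between 2D culture and tumours 8 of 10 passed, 1 higher (Il33) and 7 lower, where 54.3% of all genes did (27.3% higher, 27% lower), and 8 did not overlap, against 63.9% of all genes. The median difference of the 10 genes was -2.25 in bioink and -3.45 in 2D culture, against -0.11 and 0.01 over all genes tested. These comparisons share the tumour libraries and are not independent of each other. Passing the test was common in the whole table, so the counts alone do not mark the 10 genes out.

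The remaining question was how the bioink differed from the dish. Of the 10 genes, 7 were higher in 3D bioink and 0 were lower, where 59.2% of all genes passed (27% higher, 32.2% lower, or 3713 and 4435 genes against 4710 and 3437 with equal library sums). Il1a, Il1b and Tnf met the filter at a mean of 10 only through the tumour libraries, since no culture library read above 9 for any of them. Il1b and Tnf are among the 7 calls. For 7 of the 10 genes the groups did not overlap, as for 67.1% of all genes. The median difference, with Il1a, Il1b and Tnf included, was 1.20 against -0.02 over all genes. The firmest were Tnfrsf1b, 2.76-fold higher (log2 1.47, SE 0.12, limma adjusted p = 3.42e-06), Il1r1, 5.15-fold higher (log2 2.36, adjusted p = 0.000231), and Il1rn, 3.41-fold higher (log2 1.77, adjusted p = 0.000266). For Il1rn the difference was 0.97 after quantile normalization (adjusted p = 0.0159).

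The other 4 calls were less secure. Tnfsf9 was 1.90-fold higher in bioink (log2 0.93, SE 0.23, limma adjusted p = 0.00636), but 0.50 after quantile normalization (adjusted p = 0.114). Il1b and Tnf passed on values under 10, with log2 differences of 1.92 (SE 0.46, limma adjusted p = 0.00487) and 1.69 (SE 0.49, adjusted p = 0.0134). Both calls ended with 10 added (Il1b 0.45, adjusted p = 0.0659; Tnf 0.46, adjusted p = 0.0766) and after quantile normalization (1.07, adjusted p = 0.197; 0.47, adjusted p = 0.613), while with 0.5 added the Il1b difference was 2.54. Il33 was 1.72-fold higher (log2 0.78, SE 0.27, limma adjusted p = 0.0296), and this call ended when any of 5 libraries was left out: 2D replicates 1, 2 and 3 and 3D replicates 1 and 3, with adjusted p from 0.0619 to 0.0841. The macrophage sums given above were also higher in bioink than in 2D culture. Of those 11 genes, 7 were higher and 0 lower (63.6% and 0%, beside 27% and 32.2% of all genes), or 6 higher after quantile normalization. The part of the macrophage genes in these rises was not tested.

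The 3 others did not pass between the cultures. Tnfrsf1a differed by 0.06 (SE 0.09, limma adjusted p = 0.595), and by 0.24 and 0.25, past the threshold, after quantile normalization (adjusted p = 0.0423) and with equal library sums (adjusted p = 0.0283). Il1a differed by -0.11 (SE 0.74, adjusted p = 0.911) and Il1rl1 by -0.14 (SE 0.51, adjusted p = 0.826), neither with a stable sign.

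**Figure D2:**
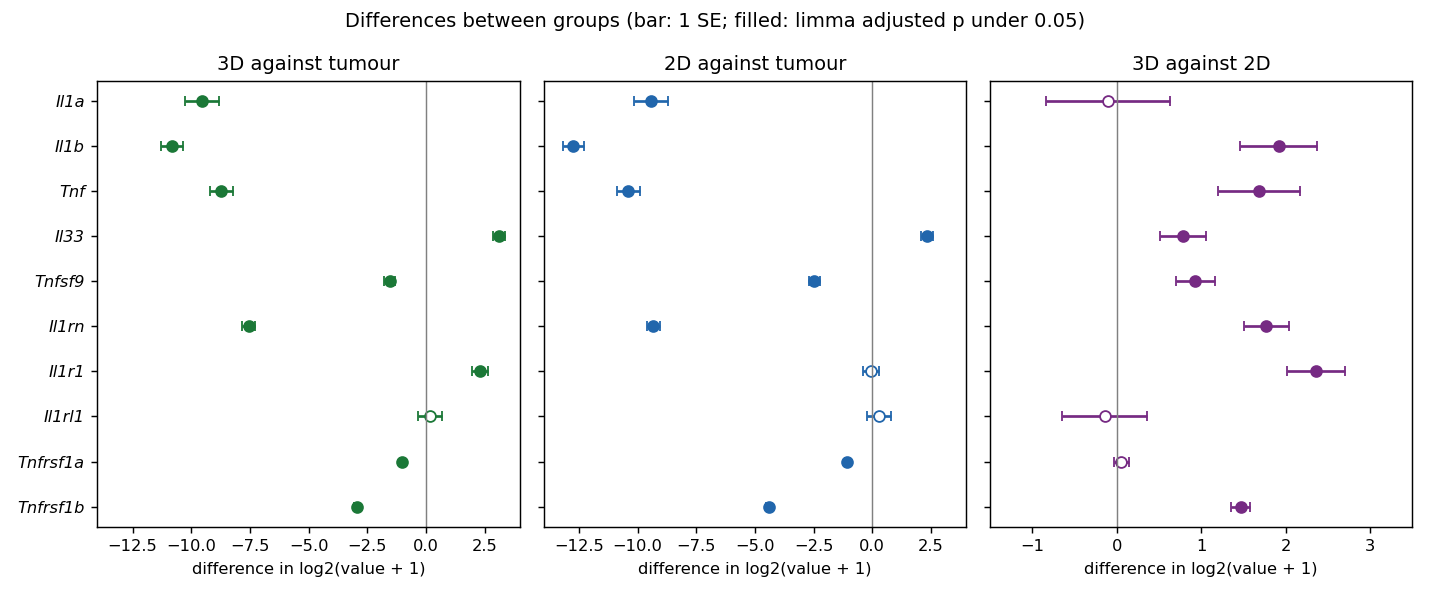
Difference in log2(value + 1) of each of the 10 genes in 3D bioink against tumours, 2D culture against tumours and 3D bioink against 2D culture (bars: 1 SE; filled points: limma adjusted p under 0.05; the last panel has a narrower scale). The 4 genes near 0 in culture lie between -12.74 and -7.56 in the panels against tumours, and all filled points of the last panel lie above 0.

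Levels were compared between genes only after division by the length of the longest coding transcript in GENCODE vM21, assuming that the deposited values scale with length, which the sources used here do not state. Per kilobase, tumours held Il1b at 6368 ± 185 (SD, n = 3 throughout), followed by Il1rn at 2871 ± 199, Tnf at 1501 ± 24.1, Tnfrsf1a at 1199 ± 125 and Il1a at 865.8 ± 48.7. Tnfrsf1b (488.8 ± 6.73), Tnfsf9 (211.1 ± 21.3) and Il33 (20.6 ± 8.26) came next. Il1r1 (3.78 ± 1.05) and Il1rl1 (2.77 ± 0.48) were last and did not differ beyond their spread. In bioink the order began with Tnfrsf1a at 594.0 ± 44.9 and Il33 at 171.9 ± 20.8, and neither Tnfsf9 (72.9 ± 16.8) and Tnfrsf1b (62.8 ± 1.29) nor Il1r1 (19.3 ± 5.12) and Il1rn (15.2 ± 4.13) differed beyond their spread. In 2D culture Tnfrsf1a (570.3 ± 8.95) and Il33 (99.3 ± 3.82) also led. Il1b, the highest of the 10 in tumours, stood at 0.25 ± 0.43 in 2D culture, where it did not differ beyond the spread from Tnf (0.61 ± 0.61) and Il1a (1.01 ± 1.01).

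Ratios of 2 genes were also taken within each library, from the deposited values plus 1. The log2 ratio of Tnfrsf1b to Tnfrsf1a was -0.60, -0.53 and -0.27 in tumours, -3.93, -3.57 and -3.97 in 2D culture, with -2.56, -2.29 and -2.38 in bioink. The 3 groups were separate, with means of -0.46, -3.82 and -2.41, so Tnfrsf1b was lower relative to Tnfrsf1a in every culture library than in any tumour library. The log2 ratio of the antagonist Il1rn to Il1b was -0.44, -0.22 and -0.20 in tumours, and higher in every culture library, at 2.00, 3.59 and 3.81 in 2D culture, with 2.26, 2.76 and 3.94 in bioink. With Il1b near 0 in culture, this ratio depends on the added value: the difference from tumours fell from 3.42 to 1.25 in 2D culture and from 3.27 to 2.02 in bioink with 10 added.

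For Il1rn to Il1a the mean log2 ratio was 2.05 in tumours, 2.16 in 2D culture and 4.04 in bioink, and the excess of 1.99 in bioink over tumours became -0.06 with 10 added. Il33 to Il1rl1 stood at 1.70 in tumours, 3.73 in 2D culture and 4.65 in bioink, with the cultures overlapping (exact p = 0.3). An exact two-sided permutation test of 3 libraries against 3 cannot give p below 0.1. That smallest p was reached by Tnfrsf1b to Tnfrsf1a in all 3 comparisons, by Il1rn to Il1b and Il33 to Il1rl1 in each culture against tumours, and by Il1rn to Il1a in bioink against tumours. These p-values were not adjusted, since none can pass 0.05.

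**Figure D3:**
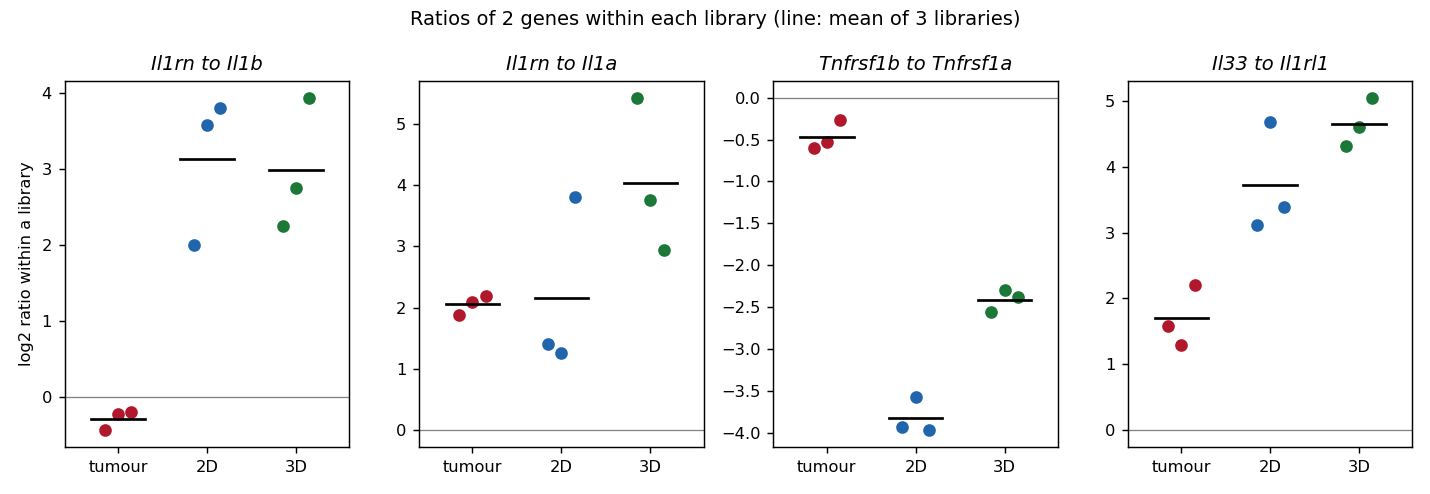
Log2 ratio of 2 genes within each library (value + 1), for Il1rn to Il1b, Il1rn to Il1a, Tnfrsf1b to Tnfrsf1a and Il33 to Il1rl1, 1 point per library and a line at the group mean. Tnfrsf1b to Tnfrsf1a separates all 3 groups, at means of -0.46, -3.82 and -2.41 in tumours, 2D culture and bioink.

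The genes whose pattern over the 9 libraries was most like each member were found by the root mean square difference of centred log2 values, among 10188 tested genes (10189 for Il1r1 and Il1rl1) with a mean of at least 100. Nearest to Il1b were C1qb (0.65), H2-Ab1 (0.68) and Cd74 (0.69), a complement subunit and genes of MHC class II. Ccl6 (0.52), Ms4a6d (0.79) and Bcl2a1b (0.84) were nearest to Il1a, Ccl3 (0.39), Lyz2 (0.48) and Trem1 (0.51) to Il1rn, and Arg1 (0.34), Ccl3 (0.47) and Laptm5 (0.51) to Tnf. Closer matches were found for the receptors, with Edem2 (0.07), Mtmr14 (0.08) and Tmbim6 (0.10) for Tnfrsf1a and Tnfaip2 (0.17), H2-D1 (0.19) and Iigp1 (0.22) for Tnfrsf1b. Il33 lay nearest to Stard4 (0.25) and the collagen genes Col6a1 and Col4a2 (both 0.29), and Il1r1 to Klf9 (0.27), Cxcl12 (0.28) and Fgd6 (0.31). Tnfsf9 lay nearest to Pik3r5 (0.13), Gtpbp2 (0.18) and Rasa4 (0.19), and Il1rl1, whose groups overlapped, to Zfyve21 (0.32), Dnaaf5 (0.33) and Znhit6 (0.34). These points share their libraries and scaling, and the distances are a description.

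Of the 10 genes, only Il1a with Il1b and Il1r1 with Il1rl1 lie next to or near each other. Il1a (chr2:129299609-129310186) and Il1b (chr2:129364569-129371164) lie 54.4 kb apart on the minus strand, and both were lower in each culture than in tumours. Il1r1 (chr1:40222480-40316201) and Il1rl1 (chr1:40404864-40465418) lie in a row of interleukin 1 receptor genes with unlike levels. Il1r2, a decoy receptor 97.2 kb from Il1r1, read 90, 82 and 107 in tumours, stood at 0 in every 2D library and at 0, 0 and 6 in bioink, while Il1r1 was highest in bioink. Il1rl2, 8.4 kb from Il1r1, a gene chosen after its values were seen, read 51, 19 and 33 in tumours and at most 1 in any culture library. Tnf (chr17:35199367-35202007) lies between Ltb, 3.1 kb away, and Lta, 1.2 kb away, neither of which passed the filter. Lta reached at most 6 and Ltb at most 20 in any library. Il1rn (chr2:24336860-24351491), Il33 (chr19:29925113-29960718), Tnfrsf1a (chr6:125349723-125362483), Tnfrsf1b (chr4:145212368-145246870) and Tnfsf9 (chr17:57105287-57107758) complete the set. Exons of Il1b overlap those of the antisense gene Il1bos, exons of Il1a those of Gm14023 and exons of Tnfsf9 those of Gm11110. Whether reads were assigned by strand is not given in the sources used here, so reads of these pairs cannot be told apart.

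Around the 10 genes, 141 further genes of the axis were listed in 7 groups, of which 137 were in the table and 113 were tested. Between bioink and tumours 20 were higher and 58 lower, between 2D culture and tumours 11 higher and 73 lower, and between bioink and 2D culture 54 higher and 13 lower. The medians were -0.62, -1.40 and 0.54, beside -0.11, 0.01 and -0.02 over all genes tested. As shares, 17.7% were higher and 51.3% lower in bioink than in tumours (27.1% and 37.3% of all genes), 9.73% and 64.6% in 2D culture against tumours (27.3% and 27%), and 47.8% and 11.5% in bioink against 2D culture (27% and 32.2%).

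Among 8 tested genes of the interleukin 1 and 18 families, 1 was higher and 3 lower in bioink than in tumours, 1 higher and 4 lower in 2D culture than in tumours, and 3 higher and 0 lower in bioink than in 2D culture. The 12.5% higher and 37.5% lower in bioink against tumours stand beside 27.1% and 37.3% of all genes. In 2D culture against tumours 12.5% and 50% stand beside 27.3% and 27%, and between the cultures 37.5% and 0% beside 27% and 32.2%. After quantile normalization, with equal upper quartiles and with equal library sums the first of these splits was 2 higher and 3 lower, and after quantile normalization the last was 1 higher and 0 lower. Il1rap, the partner chain that both Il1r1 and Il1rl1 need to signal, read 941, 963 and 916 in tumours, 1182, 1235 and 1102 in 2D culture, with 2200, 2110 and 2184 in bioink. It rose in the same order as Il33, without overlap, by 2.30-fold from tumours to bioink (log2 1.20, SE 0.06, limma adjusted p = 1.46e-07) and by 1.25-fold from tumours to 2D culture (log2 0.32, adjusted p = 0.00139). The decoy receptor Il1r2 differed from tumours by -5.61 in bioink (SE 0.80, limma adjusted p = 0.000169), or by -6.55 without 3D replicate 3, -6.31 with 0.5 added, -4.19 with array weights and -3.13 with 10 added, and was listed at 0 in 2D culture. Il18 did not pass the filter, at 0 to 41 in any library. Il18bp, the secreted inhibitor of interleukin 18, chosen after its values were seen, read 1502, 1184 and 1121 in tumours, stood at 0 in every 2D library and at 0, 13 and 0 in bioink.

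Of 10 tested genes of the inflammasome, which cleaves the interleukin 1 beta precursor, 6 were lower in bioink than in tumours, 7 were lower in 2D culture than in tumours, and 5 were higher in bioink than in 2D culture, with 0 in the other direction each time. Over all genes these shares were 37.3%, 27% and 27%. Not every member was low: the sensor Aim2, chosen after its values were seen, read 292 to 417 in tumours and 322 to 353 in the cultures. Pycard, the adaptor, chosen in the same way, read 289 to 348 in tumours, 77 to 93 in 2D culture and 219 to 367 in bioink. Nlrp3, the sensor, read 2711, 2813 and 2777 in tumours, 0, 2 and 1 in 2D culture, with 20, 17 and 11 in bioink. Its difference from tumours was -10.57 in 2D culture (SE 0.42, limma adjusted p = 2.41e-08) and -7.39 in bioink (adjusted p = 2.97e-07), or -7.98 and -6.75 with 10 added. Casp1, the protease, read 183, 175 and 245 in tumours, 16, 9 and 7 in 2D culture, with 17, 33 and 41 in bioink. It differed from tumours by -4.17 in 2D culture and -2.76 in bioink on the log2 scale (limma adjusted p = 1.65e-05 and 0.000244), the former being -3.36 with 10 added and -3.45 after quantile normalization, with the cultures differing by 1.41 (adjusted p = 0.0147). That last call ended without 2D replicate 3 (adjusted p = 0.0517), without 3D replicate 3 (0.0578) and after quantile normalization (0.241). Gsdmd, the pore that releases the cytokine, and Casp4, both chosen after their values were seen, were also lower in each culture. Gsdmd stood at 1235 ± 89.2 in tumours, 142 ± 19.4 in 2D culture and, in bioink, 205 ± 21.2, and Casp4 at 350 ± 68.5, 9.33 ± 7.57 and 127 ± 19.3 (SD, n = 3), and the Casp4 call against tumours in bioink (adjusted p = 0.016) ended without tumour replicate 1 (0.0585).

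In the relay below the interleukin 1 receptors, 5 of 13 genes were higher and 4 lower in bioink than in tumours, 2 higher and 6 lower in 2D culture than in tumours, and 7 higher and 1 lower between bioink and 2D culture. That is 38.5% and 30.8% in bioink against tumours, near the 27.1% and 37.3% of all genes, then 15.4% and 46.2% (27.3% and 27% of all genes) and 53.8% and 7.69% (27% and 32.2%). These splits moved with the scaling, to 7 and 3 after quantile normalization, 4 and 6 with equal library sums, and 9 and 0 after quantile normalization, in the same order. Myd88, the adaptor, read 1368, 1208 and 1031 in tumours, 298, 325 and 242 in 2D culture, with 239, 307 and 297 in bioink. It was 4.16-fold lower in 2D culture and 4.26-fold lower in bioink (limma adjusted p = 2.08e-06 and 1.7e-06), and the cultures overlapped. Irak3, an inhibitor of the relay, read 243, 177 and 164 in tumours, 75, 92 and 71 in 2D culture, with 195, 193 and 197 in bioink. The 2D libraries alone stood apart, 2.42-fold below tumours (limma adjusted p = 0.000303) and 2.46-fold below bioink (adjusted p = 0.000257).

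Of 16 other TNF family ligands, 5 were tested. In bioink 1 was higher and 2 lower than in tumours, in 2D culture 0 higher and 2 lower, and between the cultures 2 were higher in bioink and 0 lower. The last count was 1 after quantile normalization, 3 with equal upper quartiles and 4 with equal library sums. As shares, 20% higher and 40% lower in bioink against tumours lie near the 27.1% and 37.3% of all genes. In 2D culture against tumours 0% and 40% stand beside 27.3% and 27%, and between the cultures 40% and 0% beside 27% and 32.2%. The gene that was higher in bioink than in tumours was Tnfsf11 (RANKL), the osteoclast factor, chosen after its values were seen. It read 0, 8 and 7 in tumours, 0 in all 2D libraries and 148, 114 and 159 in bioink. Its log2 difference between bioink and tumours was 5.07 (SE 0.81, limma adjusted p = 0.000368), or 4.04 without tumour replicate 1 and 3.36 with 10 added. The death ligand Tnfsf10 (TRAIL), also chosen after its values were seen, went the other way, from 748 ± 31.3 in tumours to 56 ± 9.54 in 2D culture and 84.7 ± 13.2 in bioink (SD, n = 3).

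Of 19 tested receptors of the TNF family, 4 were higher and 9 lower in each culture than in tumours, and 3 were higher and 5 lower in bioink than in 2D culture. The 21.1% higher and 47.4% lower in bioink against tumours lie near the shares of all genes (27.1% and 37.3%); in 2D culture the same shares stand beside 27.3% and 27%, and between the cultures 15.8% and 26.3% stand beside 27% and 32.2%. Their median against tumours was -0.23 in bioink and 0.02 with equal library sums, and between the cultures 0.04 and -0.37 after quantile normalization, so the group as a whole has no direction in those comparisons. Tnfrsf9 (4-1BB), the receptor of Tnfsf9, read 67, 89 and 121 in tumours, 10, 5 and 14 in 2D culture, with 250, 271 and 318 in bioink. Its order was therefore not that of its ligand, with bioink 3.08-fold above tumours (log2 1.62, SE 0.37, limma adjusted p = 0.00328) and 2D culture 9.10-fold below them (log2 -3.19, adjusted p = 4.66e-05, or -2.37 with 10 added and -2.42 after quantile normalization). Tnfrsf12a, the receptor of TWEAK, read 1215, 1066 and 1012 in tumours, 1278, 1221 and 1253 in 2D culture, with 929, 926 and 945 in bioink. It was lower in bioink than in 2D culture (log2 -0.42, limma adjusted p = 0.000785). Its lower value in bioink than in tumours (log2 -0.23, adjusted p = 0.0206) lost its call under every other scaling, in a fit of these 2 groups alone and without tumour replicate 1, and was 0.03 with equal library sums. Its difference of 0.19 between 2D culture and tumours (adjusted p = 0.0509) passed under 6 alternatives: a filter at a mean of 50 (0.0462), equal upper quartiles (0.0383), equal library sums (0.0141), array weights (0.0278), and without 3D replicate 1 (0.0458) or tumour replicate 1 (0.00729). Ngfr, the nerve growth factor receptor of this family, chosen after its values were seen, was highest in 2D culture at 9445 ± 329, against 2463 ± 132 in tumours and 3930 ± 447 in bioink (SD, n = 3).

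Of 34 signalling genes below the TNF receptors, 21 were lower in bioink and 23 in 2D culture than in tumours (61.8% and 67.6%, beside 37.3% and 27% of all genes), with 4 higher each time, or 7 higher in bioink with equal library sums. Between the cultures 13 were higher and 7 lower in bioink (15 and 4 with equal library sums), 38.2% and 20.6% beside 27% and 32.2% of all genes. Tnfaip3 (A20) and Nfkbia, the feedback inhibitors that NF-kappa-B itself induces, were intermediate in bioink. Tnfaip3 read 13545, 13375 and 13397 in tumours, 206, 256 and 252 in 2D culture, with 4900, 4832 and 4871 in bioink. Relative to tumours it was 56.5-fold lower in 2D culture but 2.76-fold lower in bioink (limma adjusted p = 3.15e-11 and 2.02e-07). Nfkbia read 14290, 14912 and 14297, then 656, 609 and 664, then 4032, 4343 and 4209, in the same order of groups. Bioink thus stood 6.52-fold above 2D culture (log2 2.70, SE 0.05, limma adjusted p = 7.12e-10) and 3.46-fold below tumours (adjusted p = 4.8e-09). Nfkbiz, chosen after its values were seen, had the same order, at 10017 ± 293, 303 ± 45.4 and 2800 ± 24.8 (SD, n = 3). Adam17, the protease that sheds TNF and its receptors, was lowest in tumours, where Tnf was highest. Adam17 was higher in bioink than in 2D culture (log2 0.46, limma adjusted p = 0.00587). Tnf was called higher there too, but on values under 10 and with a less secure call, as given above. Adam17 read 863, 693 and 936 in tumours, 1106, 1197 and 1106 in 2D culture, with 1403, 1659 and 1636 in bioink (bioink 1.89-fold above tumours, log2 0.92, SE 0.11, limma adjusted p = 5.97e-05).

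Genes that interleukin 1 or TNF can induce had the largest median difference between the cultures of the 7 lists. Of 24 tested, 21 were higher in bioink than in 2D culture and 0 lower, with a median of 4.31, whereas against tumours 22 were lower in 2D culture and 0 higher (median -4.64), and 13 were lower and 5 higher in bioink (median -1.20). Over all genes 27% were higher in bioink than in 2D culture, and 27% and 37.3% lower than in tumours in 2D culture and bioink. Il1a, Il1b and Tnf themselves were at 9 or less in every bioink library. The list holds genes that other signals also induce.

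Of 9 tested chemokines of the list, 8 were lower in bioink than in tumours and 0 higher, all 9 were lower in 2D culture than in tumours, and 7 were higher in bioink than in 2D culture. Over all genes the shares were 37.3% lower, 27% lower and 27% higher, in the same order. These chemokines are part of the 24 inducible genes counted above. The chemokine that did not pass between bioink and tumours was Cxcl1, a neutrophil attractant. It read 864, 869 and 906 in tumours, 14, 18 and 5 in 2D culture, with 537, 430 and 536 in bioink. Bioink was 41.8-fold above 2D culture (log2 5.38, SE 0.36, limma adjusted p = 1.14e-06), or by 4.56 on the log2 scale with 10 added. Its lower level than in tumours (log2 -0.82, adjusted p = 0.0697) passed when 2D replicate 2 or 3 was left out (adjusted p = 0.0386 and 0.0012), with 10 added (0.00787) and in a fit of these 2 groups alone (0.00046). Cxcl2, a related attractant, read 5663, 5461 and 5794 in tumours, 3, 1 and 14 in 2D culture, with 193, 150 and 158 in bioink, so bioink stayed far below tumours (log2 -5.08, SE 0.57, limma adjusted p = 3.31e-05). Ccl2, the monocyte attractant, read 1135, 1080 and 1083, then 22, 14 and 11, then 641, 527 and 446, or 2.06-fold lower in bioink than in tumours (limma adjusted p = 0.00299).

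Other induced genes read as high in bioink as in tumours, or higher. Ptgs2, the inducible cyclooxygenase, read 2071, 1890 and 1894 in tumours, 77, 106 and 62 in 2D culture, with 2920, 2181 and 2400 in bioink. All bioink libraries were above all tumour libraries, but the difference (log2 0.35, SE 0.18, limma adjusted p = 0.112) passed only under 5 of the alternatives, among them equal library sums (0.61, adjusted p = 0.0136) and without 2D replicate 2 (adjusted p = 0.0373). Il6 read 63, 11 and 35 in tumours, 0, 3 and 0 in 2D culture, with 69, 23 and 54 in bioink, and tumours and bioink overlapped. Mmp3, stromelysin 1, read 6, 8 and 16 in tumours, 13, 23 and 9 in 2D culture, with 5947, 5662 and 5861 in bioink. Lcn2, an iron-binding acute phase protein chosen after its values were seen, read 171, 186 and 206 in tumours, 30, 20 and 19 in 2D culture, with 13951, 11108 and 12465 in bioink. It was 66.2-fold above tumours (log2 6.05, SE 0.17, limma adjusted p = 3.95e-09) and 529-fold above 2D culture (log2 9.05, adjusted p = 7.12e-10). Saa3, another acute phase gene chosen in the same way, read 77, 13 and 26, then 0, 9 and 0, then 579, 533 and 549, with a log2 difference of 4.17 between bioink and tumours (limma adjusted p = 0.00247) and of 4.83 without tumour replicate 1.

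The adhesion molecules and 2 further effectors were intermediate in bioink. Icam1 read 4193, 4009 and 4134 in tumours, 207, 202 and 233 in 2D culture, with 707, 847 and 810 in bioink, and Vcam1 read 353, 322 and 295, then 38, 40 and 21, then 143, 125 and 109. Icam1 was 5.23-fold and Vcam1 2.57-fold lower in bioink than in tumours (limma adjusted p = 1.82e-08 and 0.00115). The complement gene C3 and the nitric oxide synthase Nos2, chosen after their values were seen, read 3161 to 3980 and 432 to 548 in bioink, 6 to 10 and 0 to 2 in 2D culture, and 10528 to 11049 and 1598 to 1995 in tumours. A list of 10 immediate early and stress genes had the same order as these genes, with sums of 147725 to 153512 in tumours, 8030 to 8851 in 2D culture and 64872 to 68529 in bioink. The sums were mostly Jun, Fos and Egr1. Of the 10, 9 were lower in bioink than in tumours and 9 higher than in 2D culture (37.3% and 27% of all genes). Fosb did not pass in the former comparison (limma adjusted p = 0.442), nor Hspa1b in the latter (adjusted p = 0.629). Since only the bioink was recorded as digested with collagenase, the gel and the digestion cannot be told apart for any gene that differed between the cultures.

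**Figure D4:**
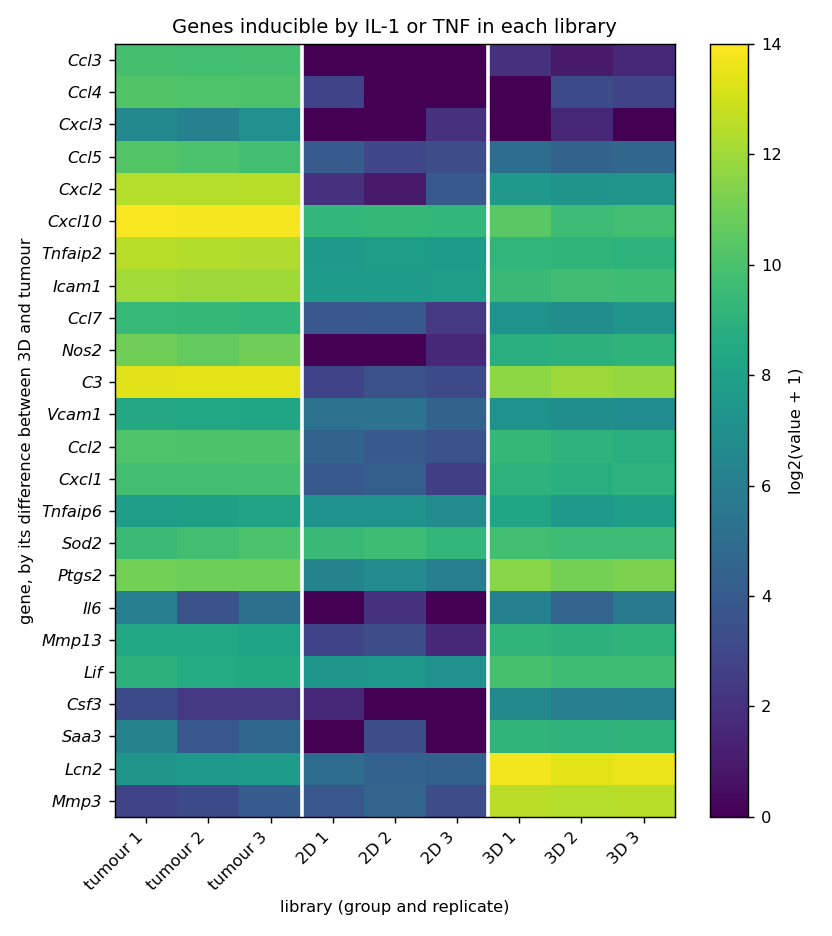
Log2(value + 1) of each tested gene inducible by interleukin 1 or TNF (rows, ordered by the difference between 3D bioink and tumours) in each of the 9 libraries (columns). The 2D columns are the lowest for most rows, and Mmp3 and Lcn2 are highest in the bioink columns.

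**Figure D5:**
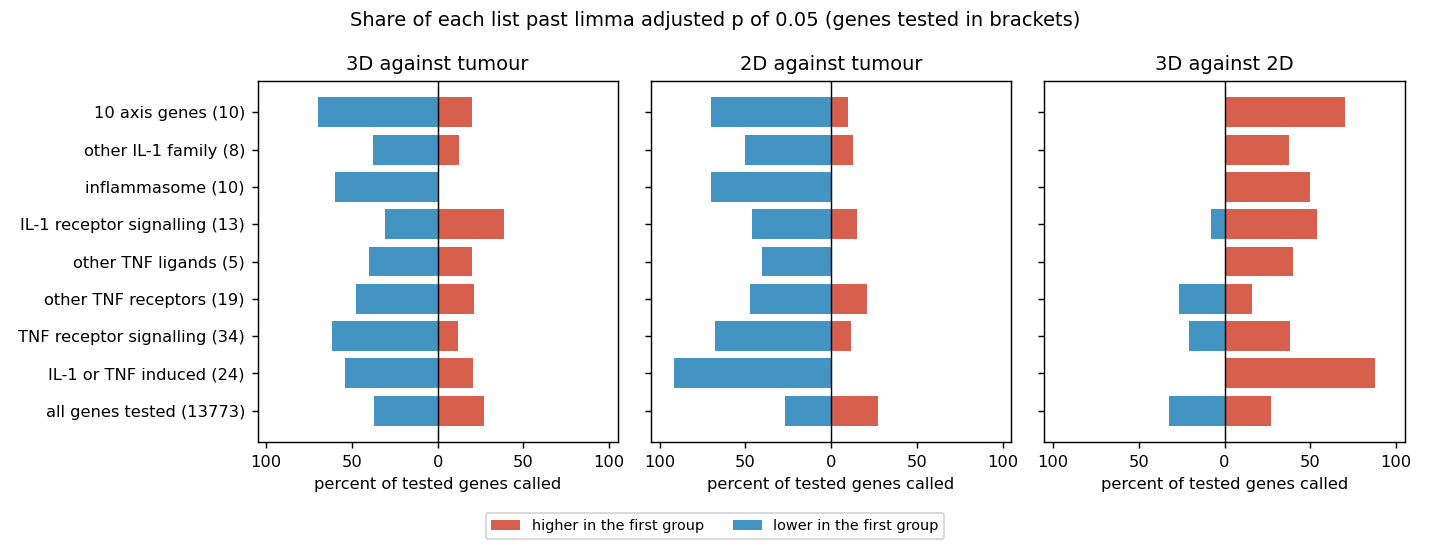
Percent of the tested genes of each list that passed a limma adjusted p of 0.05, higher to the right and lower to the left of 0, in each comparison, with all genes tested for reference. Of the 24 inducible genes, 22 fall on the lower side in 2D culture against tumours and 21 on the higher side in bioink against 2D culture.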

How the data were processed

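The submitters' processing notes name DESeq2 1.24.0, DESeq, RSEM and kallisto and the build mm10, with neither role nor order; the normalization method and annotation are not given in the sources used here. Per the labels' protocols, strand-specific libraries were made from 25 to 75 ng of RNA with 14 PCR cycles. The deposited values are a score, normalized counts that the authors rounded to whole numbers, so no count model was used and depth is unknown.

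From these values, log2(value + 1) of all 13773 genes with a mean of at least 10 was fitted in a single limma model of the 9 libraries (limma 3.58.1, R 4.3.3; lmFit, contrasts, eBayes with trend), with Benjamini-Hochberg adjustment over those genes and a threshold of 0.05. The model was tested on simulated data. No library was dropped and no value imputed. Ratios used an exact permutation test over 20 assignments of libraries. The members and gene lists were chosen with earlier results of these data known. Beside the 10 members, 20 pathway genes were named in every comparison by a fixed set (Il1r2, Il1rap, Il18, Casp1, Nlrp3, Myd88, Irak3, Adam17, Tnfaip3, Nfkbia, Tnfrsf9, Tnfrsf12a, Cxcl1, Cxcl2, Ccl2, Il6, Ptgs2, Icam1, Vcam1 and Mmp3), with the 3 genes most like each member, and other pathway genes are said to be chosen after their values were seen, as were all single cell type markers named. Il36a, Il36b, Il36g and Il36rn were not analysed here. Further marker lists were summed: T and NK cells, at 560 to 681 in tumours, 87 to 103 in 2D culture and 212 to 302 in bioink, and neutrophils, at 785 to 928, 23 to 44 and 74 to 115. Mast cell and basophil sums (867 to 967, 28 to 42 and 684 to 779) were mostly Kit, and oligodendrocyte sums were 4955 to 5841, 8354 to 8716 and 6521 to 7006. Alternatives changed the added value (0.5, 10), the filter (none, a mean of at least 50), the scaling (quantile, equal upper quartiles, equal sums), the fit (array weights, no trend, the 2 groups compared, a replicate block) and left out each library in turn.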

Additional observations from a re-analysis of the deposited data

How the results depend on the processing

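Between each culture and tumours the number of the 10 genes past the threshold was the same under every alternative, 9 in bioink and 8 in 2D culture; between the cultures it ran from 5 to 8 (5 after quantile normalization, 8 with equal sums, and 6 to 7 without any 1 library). Listed pathway genes past the threshold ran from 69 to 86 in bioink against tumours, 75 to 91 in 2D culture against tumours and 62 to 81 between the cultures. Of the comparisons of the 10 genes under the alternatives, 569 kept direction and call, 10 lost a call, 2 gained 1 and 16 changed sign; all sign changes were in differences that had not passed. Other scalings moved the median of all genes to 0.04 to 0.14 for bioink against tumours, 0.02 to 0.18 for 2D culture against tumours and -0.06 to 0.17 between the cultures, and turned all genes called in bioink against tumours from 3737 higher and 5132 lower to 4886 higher and 3825 lower with equal sums, in 2D culture against tumours from 3761 and 3713 to 4489 and 3058 after quantile normalization, and between the cultures from 3713 and 4435 to 4710 and 3437 with equal sums.

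Sign changes were as follows, and the cause was not tested. In bioink against tumours, Il1rl1 was -0.18 after quantile normalization and -0.16 with array weights (-0.11 to 0.36 without 1 library), Irak3 -0.089 to 0.19 and Il6 -0.086 to 1.12 without 1 library, and with equal sums Tnfrsf12a was 0.033 and Rel, chosen after its values were seen, 0.059. In 2D culture against tumours, Il1r1 was 0.61 after quantile normalization and 0.001 with equal sums (-0.30 to 0.074 without 1 library). Between the cultures, Il1a was 0.78 with array weights (-0.80 to 0.49 without 1 library), Il1rl1 0.043 with equal sums (-0.61 to 0.13), and Myd88 0.037 after quantile normalization, 0.11 with equal upper quartiles, 0.16 with equal sums and 0.01 with array weights (-0.15 to 0.077). With 10 added, the log2 ratio of Il1rn to Il1b differed from tumours by 2.02 in bioink and 1.25 in 2D culture, and Il1rn to Il1a by -0.06 in bioink, since the added value outweighs counts near 0.

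The replicate numbers did not pair the samples, with correlations of same-numbered deviations from -0.033 to 0.08; with a replicate block 9, 8 and 7 of the 10 genes passed, and 8795, 7357 and 8039 of all genes against 8869, 7474 and 8148, so the replicate block moved no count by over 1.5 times. Leaving a group with 2 libraries assumes that it varies like the others. With a filter at a mean of 50, Il1rl1 gave no value. Depth is unknown, so no detection limit can be given for values near 0.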
